A study of Mus musculus with 4 samples.

Results

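The fast sarcomere isoforms and fast myosins are the contractile proteins that fast-twitch muscle fibres use in place of their slow or cardiac counterparts. They were chosen by name as 10 genes and, like the lists set beside them below, with earlier results of these data known. They are the myosin heavy chains Myh2, Myh1 and Myh4, the myosin light chains Mylpf and Myl1, and the troponin subunits Tnnt3, Tnni2 and Tnnc2. The others are the Z-disc protein gene Actn3 and the myosin-binding protein gene Mybpc2. Of the 10 genes, 9 had a probe set with a single gene symbol among the 12393 genes so named on the array. Mybpc2 was not analysed here. The 9 genes were measured by 13 of the 22690 probe sets, and all 9 passed the filter on dim probe sets that left 8402 genes for testing. Gastrocnemius, the main calf muscle, was taken from 2 mice with muscle overexpression of the nuclear receptor PPARα (MCK-PPARa) and from 2 non-transgenic littermates as controls (NTG), and total RNA of each sample went on 1 array. The labels call the transgene muscle-specific and name it MCK-PPARa. Beyond the MCK in that name they do not describe its promoter. Nor do they give the number of founder lines or the strain, age and sex of the mice. They describe no treatment in either group. Each array is tied to a mouse by a replicate number alone, so the spread between these 4 samples may in part be technical. The limma p-values, intervals and standard errors below rest on that spread and on the spread of all genes fitted. In the fit over genes the median was 7.78 degrees of freedom, of which 2 come from a gene's own arrays. An SE is thus not the spread of a gene's own arrays alone.

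Skeletal muscle fibres are sorted by the myosin heavy chain they carry, from slow type I through fast type IIa and IIx to the fastest, type IIb. In the mouse Myh7 encodes the type I chain, Myh2 the IIa chain, Myh1 the IIx chain and Myh4 the IIb chain, and type IIa fibres are the most oxidative of the fast ones. Fast fibres also carry their own light chains, which steady the myosin lever arm, and their own troponin complex, the calcium switch of the thin filament. PPARα is a transcription factor best known for switching on genes of fatty acid use, so the comparison asks whether muscle with more of it carried another set of fast isoforms, and whether type IIa stood apart from IIx and IIb.

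The 3 fast myosin heavy chain genes stand side by side on mouse chromosome 11, in the order Myh3, Myh2, Myh1, Myh4, Myh8 and Myh13 among the protein-coding genes there (RefSeq, GRCm38.p6). Their promoters are shown because these genes are the ones set against each other below. The windows are the 250 bases before the annotated start, from RefSeq, build GRCm38.p6, plus strand, at chr11:67170777-67171026 for Myh2, chr11:67199852-67200101 for Myh1 and chr11:67237562-67237811 for Myh4. Capitals mark the longest run of bases found in all 3.
Myh2: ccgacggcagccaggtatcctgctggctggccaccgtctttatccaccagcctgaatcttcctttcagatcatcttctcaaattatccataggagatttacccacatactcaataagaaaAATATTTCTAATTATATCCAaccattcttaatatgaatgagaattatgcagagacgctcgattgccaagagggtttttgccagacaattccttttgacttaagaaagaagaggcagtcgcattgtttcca
Myh1: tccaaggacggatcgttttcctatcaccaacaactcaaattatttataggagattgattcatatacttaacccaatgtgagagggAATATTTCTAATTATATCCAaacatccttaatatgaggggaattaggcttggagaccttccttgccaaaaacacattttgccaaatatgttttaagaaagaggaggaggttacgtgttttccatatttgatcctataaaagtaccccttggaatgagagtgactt
Myh4: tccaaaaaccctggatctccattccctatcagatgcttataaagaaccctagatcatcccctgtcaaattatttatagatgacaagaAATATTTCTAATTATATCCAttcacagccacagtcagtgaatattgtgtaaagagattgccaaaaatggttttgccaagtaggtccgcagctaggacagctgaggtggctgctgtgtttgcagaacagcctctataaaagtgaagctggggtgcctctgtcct

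The shared run is 20 bases long, and it was found in these 3 windows and in no other of the 32851 promoter windows, read on each gene's own strand. It lies at positions -130 to -111 from the start of Myh2, -165 to -146 of Myh1 and -163 to -144 of Myh4. The first TATAAA after it follows at 120 bases in Myh2, 113 in Myh1 and 112 in Myh4. That TATAAA begins at position -32 in Myh1 and -31 in Myh4, but at position 11 past the annotated start in Myh2. In a global alignment the windows were 49.5% identical between Myh2 and Myh1, 48.5% between Myh2 and Myh4 and 56.0% between Myh1 and Myh4.

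Motifs were searched on both strands of the same windows. The MEF2 consensus, the binding motif of a family of muscle transcription factors, was found in Myh1 at -211 and in Myh4 at -182, overlapping a TATAAA in each, and in 2.92% of all windows. The E-box CANNTG, bound by myogenic factors, was found in Myh4 at -221 and -67 and in 66.2% of all windows. A CArG box, the motif of serum response factor, was found in Myh4 at -104 and in 1.47% of all windows. A form of PPAR response element, the direct repeat of AGGTCA with 1 base between the copies, was found in 0 of the 3 and in 0.0335% of all windows, and TATAAA in 12.4%. These matches are letters in a window, and 7 of the 10 listed genes had an entry in the promoter table.

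Each array had a 2% trimmed mean signal between 1500.6 and 1500.7, and median signals ran from 581.5 to 700.3. The overexpressed gene, Ppara, read 633.4 and 2674 in the controls and 7969 and 15226 in the transgenic samples (8.02-fold, with a log2 SE of 0.62, n = 2 per group, limma adjusted p = 0.21), so it was higher in both transgenic samples without passing the test. With 1 array left out its log2 change ran from 2.02 without NTG replicate 1 to 3.99 without NTG replicate 2. Such a fit leaves 1 group with a single array and no spread of its own, so its tests borrow the spread of the other group. Over all 8402 genes, limma called 5 genes at an adjusted p under 0.05, 4 higher and 1 lower, which is 0.0595% of those tested, and 5.83% had an unadjusted p under 0.05. With 1 array left out the count was 72 to 150. Precision is limited by the number of arrays, and the smallest two-sided p that exact permutation of 2 against 2 allows is 0.33. The array labelled replicate 1 and the array labelled replicate 2 also differed in both groups. The control probe set at the 5′ end of 18S ribosomal RNA gave 2202 (NTG) and 2313 (MCK-PPARa) under replicate number 1, against 28.9 (NTG) and 44.7 (MCK-PPARa) under number 2.

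None of the 9 fast genes passed the test between MCK-PPARa and NTG muscle. Their changes on the log2(signal + 64.2) scale ran from -0.20 for Tnnt3 to 0.24 for Tnnc2, with a median of 0.084 beside 0.054 over all genes tested. In limma the count past an adjusted p of 0.05 was 0 of 9, against 0.0595% of all genes, and 0 of 9 had an unadjusted p under 0.05. The smallest adjusted p among them was 0.98 in limma. The standard errors were 0.31 to 0.45, and the widest 95% interval, that of Myl1, ran from -1.05 to 1.04, so a change within such an interval was not detectable with these arrays. The changes of Myh1, Myh2, Myh4 and Tnni2 lay below 0 under quantile normalization, as did those of Myh1 and Myh2 under median centring. Groups that did not overlap were seen for 2 of 9, both higher, where 20.4% of all genes tested were higher and 13.8% lower without overlap. In whole muscle, fewer fibres of a type and less RNA per fibre cannot be told apart.

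**Figure D1:**
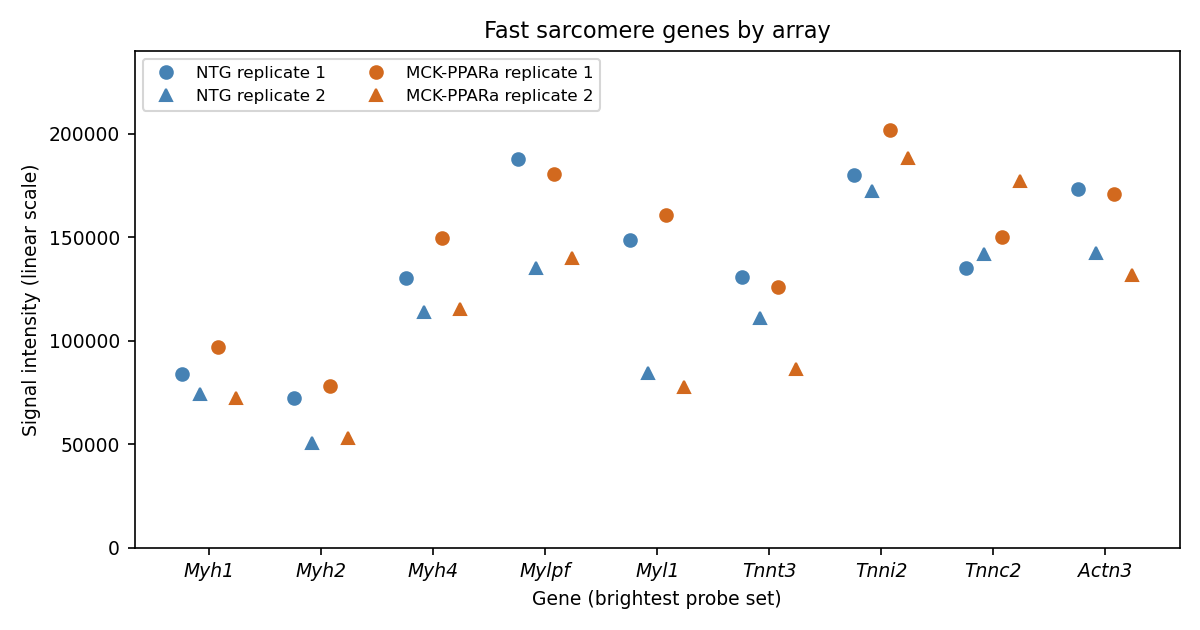
Signal intensity on a linear scale (y axis) of the brightest probe set of each of the 9 fast genes (x axis), 1 point per array, with circles for replicate 1, triangles for replicate 2, blue for NTG and orange for MCK-PPARa. Blue and orange points of 1 shape lie close together, and for Myl1 the triangles lie far below the circles in both groups.

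Myh2, the type IIa heavy chain, had a signal of 72161 and 50556 in NTG replicates 1 and 2 and of 77969.7 and 52859 in MCK-PPARa replicates 1 and 2. In each group the replicate 1 sample was the higher, and the groups overlapped. The fold change was 1.06 with a 95% interval of 0.602 to 1.88 (log2 change 0.088 ± 0.354, SE, n = 2 per group, limma adjusted p = 0.995). The replicate 1 arrays differed by 0.11 and the replicate 2 arrays by 0.064 between genotypes, while the 2 arrays of 1 genotype differed by 0.51 and 0.56.

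Myh4, the type IIb heavy chain, read 130380.1 and 113626 in the controls and 149434 and 115535 in the transgenic samples. MCK-PPARa replicate 1 was the highest of the 4, and the other transgenic sample lay between the controls. The fold change was 1.08 with a 95% interval of 0.642 to 1.82 (log2 change 0.11 ± 0.32, SE, n = 2 per group, limma adjusted p = 0.99).

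Myh1, the type IIx heavy chain, was measured by 3 probe sets that did not read alike. The brightest, 1427868_x_at, read 83718 and 74488 in the controls and 96851 and 72346 in the transgenic samples. Its controls lay between the transgenic samples, with a fold change of 1.06 (log2 change 0.084 ± 0.321, SE, n = 2 per group, limma adjusted p = 0.99). The suffix x marks a probe set with probes that can also match other transcripts, and the fast myosin heavy chains are close relatives in sequence.

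The second Myh1 probe set, 1427520_a_at, read 54690.1 and 47265 in the controls and 50794 and 38038 in the transgenic samples. One transgenic sample lay between the controls and the other below both. In the limma fit over all 22626 probe sets other than controls its log2 change was -0.21 ± 0.41 (SE, n = 2 per group, adjusted p = 0.99). The third, 1452465_at, was dim, with a mean at percentile 29.5 of those probe sets, and would not have passed the filter. It read 373.2 and 587.6 in the controls and 114.6 and 115.7 in the transgenic samples, both transgenic samples below both controls, where 12.8% of all probe sets were lower without overlap. Its log2 change was -1.57 ± 0.55 (SE, n = 2 per group), with an unadjusted limma p of 0.019 and an adjusted p of 0.73, so it did not pass either. Of the 22626 probe sets in this limma fit 0.0309% passed, and 1245 had an unadjusted p under 0.05. Of the 13 probe sets of the fast genes 0 passed. An unadjusted p under 0.05 in limma was seen for 2 of the 13, 1452465_at of Myh1 and 1438608_at of Tnni2.

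**Figure D2:**
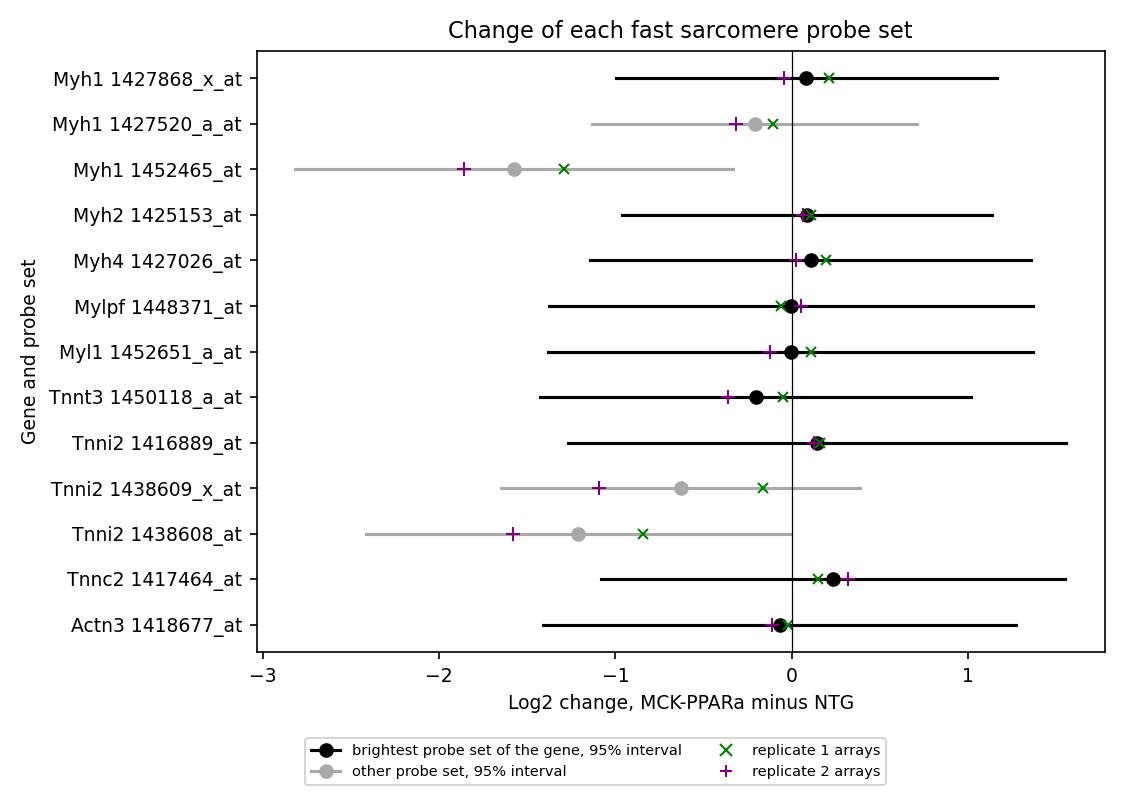
Log2 change, MCK-PPARa minus NTG (x axis), of all 13 probe sets of the 9 fast genes (y axis) in the fit over all probe sets, as circles with 95% intervals, black for the brightest probe set of a gene and grey for the others, with crosses for the replicate 1 arrays and plus signs for the replicate 2 arrays. The 9 black circles lie between -0.20 and 0.24, and the dim probe sets 1452465_at of Myh1 and 1438608_at of Tnni2 lie farthest from 0, at -1.57 and -1.21.

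The changes of type IIa, IIx and IIb were set against each other within each array, as the log2 signal of one gene minus that of the other. These differences carry no order of abundance, since different probe sets do not bind equally, and only their shift between genotypes was compared. Myh2 minus Myh4 was -0.85 and -1.17 in the controls and -0.94 and -1.13 in the transgenic samples. The transgenic values lay between the controls, and their mean differed by -0.022 (exact permutation p = 1, two-sided, n = 2 per group). Myh2 minus Myh1 was -0.21 and -0.56 in the controls and -0.31 and -0.45 in the transgenic samples, again within the controls, with a shift of 0.0039 (exact permutation p = 1, n = 2 per group).

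Myh1 minus Myh4 was the steadiest of the 3 across arrays, at -0.64 and -0.61 in the controls and -0.63 and -0.67 in the transgenic samples, a shift of -0.026 (exact permutation p = 0.667, n = 2 per group). The other Myh1 probe sets gave other shifts, in comparisons chosen after seeing the data. With 1427520_a_at, Myh1 minus Myh4 was -1.25 and -1.26 in the controls and -1.56 and -1.60 in the transgenic samples, groups that did not overlap, with a shift of -0.32. Myh2 minus Myh1 with the same probe set was 0.40 and 0.097 in the controls and 0.62 and 0.47 in the transgenic samples, a shift of 0.30. Both reached the smallest exact permutation p that 2 against 2 allows, 0.33, which is above 0.05. For any 1 Myh1 probe set the 2 shifts add up to that of Myh2 minus Myh4, so they are not separate results. With the dim probe set 1452465_at the shifts were -1.68 for Myh1 minus Myh4 and 1.66 for Myh2 minus Myh1 (exact permutation p = 0.33 for each, n = 2 per group). The shift of type IIx against IIa and IIb thus differed with the Myh1 probe set read, while Myh2 against Myh4, with 1 probe set each, shifted by less than the spread between replicates.

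**Figure D3:**
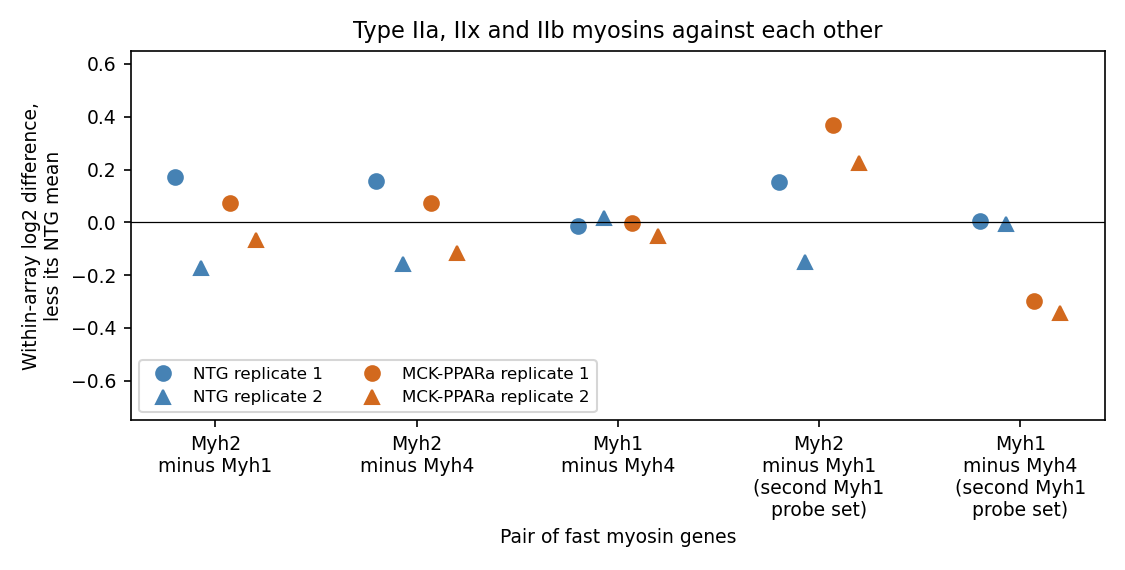
Within-array log2 difference between 2 fast myosin heavy chain genes, less the mean of the NTG arrays (y axis), for each pair (x axis), 1 point per array, with circles for replicate 1, triangles for replicate 2, blue for NTG and orange for MCK-PPARa. With the brightest Myh1 probe set the orange points lie among or close to the blue ones, and with the second Myh1 probe set they lie above the blue ones for Myh2 minus Myh1 and below them for Myh1 minus Myh4.

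The fast light chains differed between the genotypes by less than the spread between replicates. Mylpf, the fast regulatory light chain, read 187623 and 134868 in the controls and 180291 and 139712 in the transgenic samples. Both transgenic samples lay between the controls, with a log2 change of -0.0033 ± 0.3446 (SE, n = 2 per group, limma adjusted p = 0.999). Myl1, the fast essential light chain, read 148607 and 84624 in the controls and 160470.1 and 77869 in the transgenic samples. Here the transgenic samples lay just outside the controls on both sides, and the log2 change was -0.0046 ± 0.4525 (SE, n = 2 per group, limma adjusted p = 0.999). The replicate 1 array was 1.76-fold above the replicate 2 array in NTG and 2.06-fold in MCK-PPARa muscle, the widest gap between arrays of 1 group among the 9 genes.

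The 3 fast troponin subunits had log2 changes of both signs. Tnnc2, the calcium-binding subunit, read 135065 and 141696 in the controls and 149985 and 177103 in the transgenic samples, both transgenic samples above both controls. Its fold change was 1.18 with a 95% interval of 0.711 to 1.95 (log2 change 0.24 ± 0.31, SE, n = 2 per group, limma adjusted p = 0.98). Tnnt3, the subunit that anchors the complex on tropomyosin, read 130529 and 111074 in the controls and 126163 and 86533 in the transgenic samples. One transgenic sample lay between the controls and the other below both, with a log2 change of -0.20 ± 0.34 (SE, n = 2 per group, limma adjusted p = 0.98).

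Tnni2, the inhibitory subunit, was measured by 3 probe sets, and these differed in direction. The brightest, 1416889_at, read 180227 and 172414 in the controls and 201793 and 188294 in the transgenic samples, both transgenic samples above both controls. Its log2 change was 0.15 ± 0.31 (SE, n = 2 per group, limma adjusted p = 0.98), and it was -0.014 under quantile normalization. The second, 1438609_x_at, read 51731 and 88785 in the controls and 46153 and 41568 in the transgenic samples, both transgenic samples below both controls. Its log2 change over all probe sets was -0.63 ± 0.45 (SE, n = 2 per group, limma adjusted p = 0.98), made of -0.16 under replicate number 1 and -1.09 under number 2. The dimmest, 1438608_at, read 4477 and 2387 in the controls and 2467 and 755.8 in the transgenic samples, where the groups overlapped (-1.21 ± 0.53, SE, n = 2 per group, unadjusted p = 0.049 and adjusted p = 0.90 in limma). The annotation gives 1438608_at and 1438609_x_at the same expressed sequence tag as their source, and 1416889_at a RefSeq transcript.

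Actn3, the fast-fibre α-actinin that cross-links thin filaments at the Z-disc, read 173387 and 142193 in the controls and 170714 and 131576 in the transgenic samples. One transgenic sample lay between the controls and the other below both, and the log2 change was -0.067 ± 0.331 (SE, n = 2 per group, limma adjusted p = 0.996). Signals of the brightest probe set of each of the 9 genes ranked between 2 and 103 among the 22626 probe sets other than controls on every array. Whether signals this bright still follow the amount of RNA was not tested. In the fit over all probe sets their standard errors were 0.46 to 0.62.

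The gap between the 2 arrays of 1 genotype was larger than the difference between genotypes for 8 of the 9 genes, taking the larger of the 2 gaps. Its median over the 9 was 0.42 on the log2 scale, beside 0.59 over all genes tested. The median absolute change between genotypes was 0.088, beside 0.28 over all genes. The median gap was thus the larger over all genes too, and the share of all genes with such a gap was not counted. The replicate 1 array read above the replicate 2 array in both genotypes for 8 of the 9, and the reverse held for Tnnc2. Of all genes tested, 29.8% had the replicate 1 array higher in both genotypes and 38.7% the replicate 2 array. Between genotypes the median change of the 9 genes was 0.11 under replicate number 1 and 0.024 under number 2. The 18S signals given above differ by the same replicate number, and their part in these gaps was not tested.

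**Figure D4:**
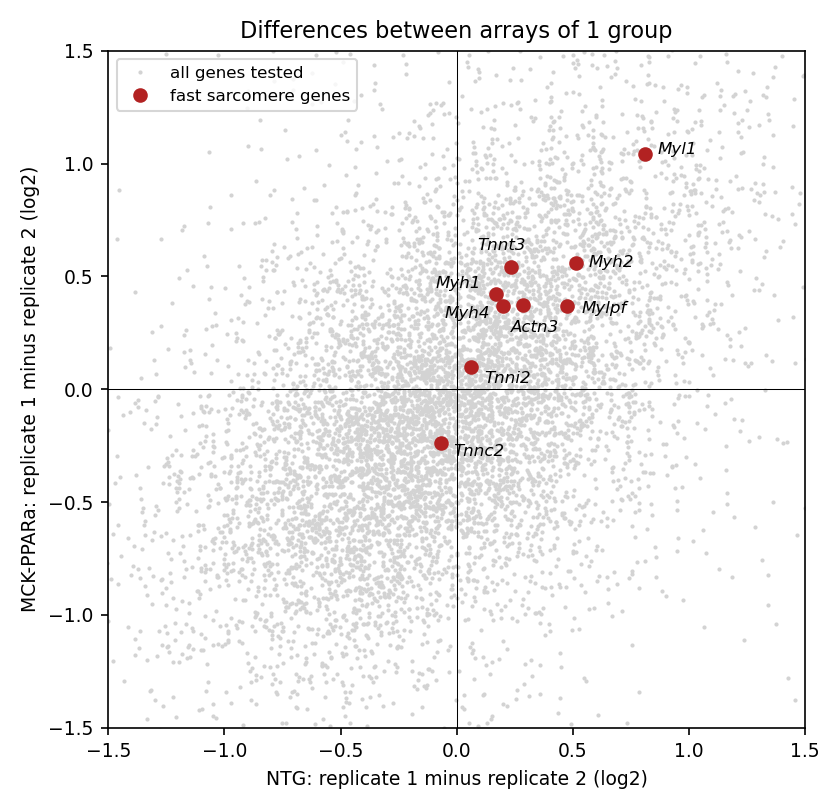
Replicate 1 minus replicate 2 on the log2 scale in NTG (x axis) and in MCK-PPARa muscle (y axis), with all 8402 genes tested in grey and the 9 fast genes in red; 493 genes lie outside the plotted range. The fast genes other than Tnnc2 lie above 0 on both axes, from Tnni2 near the origin to Myl1 at 0.81 and 1.04.

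A list of other genes used by fast fibres, mostly of calcium handling and glycolysis, gave 0 calls as well. It also holds Z-disc genes, among them Actn2, an α-actinin gene that all fibre types use, whose log2 change of 0.0012 was the list's median. Of 16 listed genes 15 were tested, with 8 changes above 0 and 7 below, a median of 0.0012 beside 0.054 over all genes, and 0 past the adjusted threshold or an unadjusted p under 0.05 in limma. Ldha, the muscle lactate dehydrogenase subunit, read 130254 and 95790 in the controls and 144006 and 164921 in the transgenic samples (0.46 ± 0.33, SE, n = 2 per group, limma adjusted p = 0.96). Muscle creatine kinase (Ckm), the calcium pump gene Atp2a1 and Gpd1, which shuttles reducing equivalents, had log2 changes of 0.34, 0.31 and -0.28 (limma adjusted p = 0.97 for each).

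A list of slow and cardiac muscle genes, most of them counterparts of the fast isoforms, held larger changes, without passing the test over all genes. It also holds genes with no partner among the 10 fast genes. These are the calcium-handling genes Atp2a2 and Casq2, with log2 changes of -0.30 and 0.57, and Myoz2 and Tpm3, with -0.021 and 0.13. Of 13 listed genes 10 were tested, with 8 changes below 0, a median of -0.54 and 4 of 10 lower without overlap, beside 13.8% of all genes. In limma 0 of 10 passed, against 4 at an unadjusted p under 0.05. The type I heavy chain gene Myh7 read 12696 and 6606 in the controls and 2068 and 836.2 in the transgenic samples (-2.74 ± 0.49, SE, n = 2 per group, limma adjusted p = 0.16). The slow troponin genes had log2 changes of -1.82 (Tnni1), -1.48 (Tnnt1) and -1.79 (Tnnc1), with limma adjusted p of 0.26, 0.49 and 0.50, beside 0.15, -0.20 and 0.24 for their fast partners Tnni2, Tnnt3 and Tnnc2. The sizes of the slow changes depended on single arrays. That of Myh7 ran from -3.36 without MCK-PPARa replicate 1 to -2.11 without MCK-PPARa replicate 2. Without NTG replicate 1 the log2 changes of Tnnc1 and Tnnt1 were -1.12 and -0.83, and without NTG replicate 2 they were -2.46 and -2.13. Without MCK-PPARa replicate 2 that of Tnnc1 was -1.18. The list's median ran from -0.38 without NTG replicate 1 to -0.997 without NTG replicate 2, and was -0.87 without MCK-PPARa replicate 1. The difference between the slow and fast genes as lists was not tested.

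**Figure D5:**
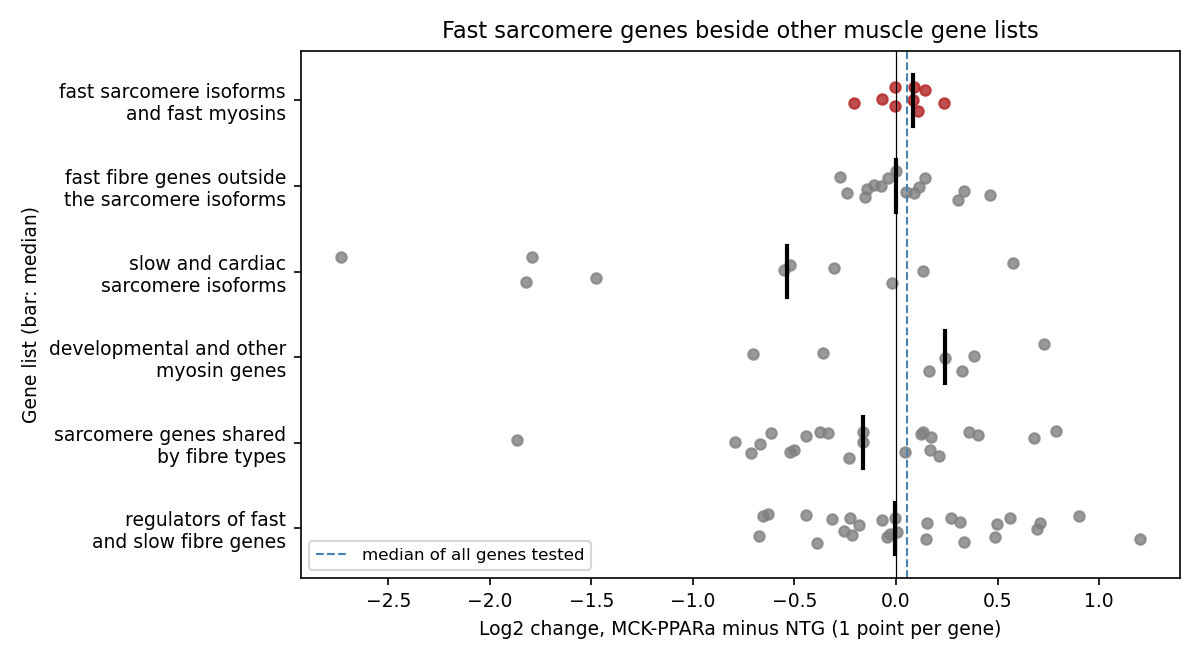
Log2 change, MCK-PPARa minus NTG (x axis), of each gene tested in the fast sarcomere list (red) and 5 other muscle gene lists (grey, y axis), with a bar at the median of each list and a dashed line at the median of all genes tested, 0.054. The fast genes lie between -0.20 and 0.24, while the slow and cardiac list reaches from -2.74 to 0.57.

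Developmental and other myosin genes had a median change of 0.24 over 7 tested of 11 listed, and 0 passed in limma, with 1 at an unadjusted p under 0.05. That gene was Myh14, a non-muscle heavy chain, which read 3070 and 3546 in the controls and 5493 and 5526 in the transgenic samples (0.73 ± 0.29, SE, n = 2 per group, limma adjusted p = 0.77). Myh8, the perinatal heavy chain next to Myh4 on the chromosome, had a log2 change of -0.70, Myl6, a light chain of non-muscle and smooth muscle, of 0.38, and Myh11, the smooth muscle heavy chain, of -0.36 (limma adjusted p of 0.96, 0.97 and 0.97).

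Sarcomere genes shared by fibre types had a median change of -0.16 over 23 tested of 28 listed, with 10 above 0 and 13 below, and 9 of 23 were lower without overlap, beside 13.8% of all genes. In limma 0 passed, against 1 at an unadjusted p under 0.05. This was Actc1, the cardiac α-actin that skeletal muscle also makes, which read 91205 and 98852 in the controls and 19301 and 35014 in the transgenic samples (-1.87 ± 0.37, SE, n = 2 per group, limma adjusted p = 0.20). With 1 array left out its log2 change ran from -2.29 without MCK-PPARa replicate 2 to -1.44 without MCK-PPARa replicate 1. The log2 changes of the ubiquitin ligase gene Trim54, the actin-capping subunit gene Capza2 and the small heat shock protein gene Cryab were -0.67, -0.72 and 0.79 (limma adjusted p of 0.85, 0.89 and 0.89). With the mean of all probe sets of a gene, the change of Cryab was 0.44 and that of Capza2 -0.73.

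Regulators of fast and slow fibre genes had a median change of -0.0033 over 27 tested of 37 listed, with 13 above 0 and 14 below. In limma 0 passed, against 1 at an unadjusted p under 0.05, which was Tead1, a transcription factor of muscle genes. It read 489.5 and 403.9 in the controls and 968.9 and 1261 in the transgenic samples (1.20 ± 0.39, SE, n = 2 per group, limma adjusted p = 0.58). Tbx15, a transcription factor that in mice favours glycolytic fibres, had a log2 change of -0.63, the myogenic factor gene Myog one of 0.69, and Ppp3ca, which encodes a catalytic subunit of calcineurin, one of 0.71 (limma adjusted p of 0.89, 0.85 and 0.89). With the mean of all probe sets of a gene, the change of Ppp3ca was 0.14 and that of Tbx15 -0.55.

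Skeletal muscle markers were bright on every array: the 8 tested, of 9 listed, had a summed signal of 937971 to 1015253 in NTG and 951790 to 1124766 in MCK-PPARa muscle. Among markers of other cells, the adipocyte list had all 5 tested of 10 listed above 0, a median change of 1.34 and a summed signal of 10541 to 12873 in NTG and 29214 to 62901 in MCK-PPARa muscle. None of these markers was at 0 on any array. In limma 0 of the 5 passed, against 4 at an unadjusted p under 0.05. With 1 array left out the list's median ran from 1.11 without NTG replicate 1 to 1.58 without NTG replicate 2. The part of this adipocyte marker difference in the values of the fast genes was not tested. The endothelial, fibroblast, macrophage, nerve, smooth muscle, tendon and red blood cell lists had medians from -0.27 to 0.28. In that order 8, 7, 5, 3, 4, 5 and 2 genes were tested. In limma 0 of these genes passed the adjusted threshold, and 4 had an unadjusted p under 0.05, beside 5.83% of all genes. The endothelial list had 7 of 8 above 0 and 4 higher without overlap. The macrophage list had 5 of 5 above 0 and 3 higher, where 20.4% of all genes were higher without overlap. The tendon list had 2 above 0, 3 below and 2 lower without overlap, where 13.8% of all genes were lower. Of the heart list 2 of 7 were tested, Sln and Myl4, with a median change of 3.11 and a summed signal of 924 to 1408 in NTG and 6047 to 10145 in MCK-PPARa muscle. Of these Sln, which skeletal muscle also expresses, rose by 6.06 on the log2 scale (limma adjusted p = 0.0057), and the change of Myl4 was 0.16.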

How the data were processed

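The authors deposited 1 table of linear signal intensity, 1 value per probe set and array, and the submitters' processing notes name MAS5, which summarises perfect-match and mismatch probes. Its version and settings, and any detection calls, are not stated. The deposited intensity values have nearly equal 2% trimmed means and were used without further normalization. Gene symbols of probe sets are those of the platform annotation. The scale was log2(signal + 64.2), with an offset equal to 10% of the median deposited value. Probe sets with a mean below the 40th percentile (455 signal units) were dropped, and a gene was represented by its brightest probe set with a single symbol. The genotypes were compared with limma 3.58.1 in R 4.3.3 (lmFit, eBayes with a variance trend, two-sided, no covariate), with Benjamini-Hochberg adjustment over all 8402 genes, or over all 22626 non-control probe sets without a filter. Within-array differences between myosin genes were compared by exact permutation of the 4 arrays. The fit was run on simulated data with noise drawn independently for each array. The simulation did not copy the joint deviation of same-numbered arrays seen in these data, so it does not cover that case.

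The members and lists were chosen with earlier results of these data known. The text names Ppara, every member and up to 4 genes of each muscle list by smallest unadjusted p. Actn2 is named as the gene at its list's median. Atp2a2, Casq2, Myoz2 and Tpm3 are named as slow-list genes without a partner among the fast genes. Lists of other cells are given as counts, medians and sums. Of their genes, Sln and Myl4 are named as the only heart genes tested. Scd1, Fabp4 and Adipoq are named as those that passed with the replicate number as a block. Promoters came from RefSeq and were aligned with Biopython 1.88. Alternatives covered the offset, the filter, the scaling, the variance trend, the replicate number as a block, each array left out and the probe sets of a gene.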

Additional observations from a re-analysis of the deposited data

How the results depend on the processing

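In limma 0 of the 9 fast genes passed in each of the 13 alternative fits, also at an unadjusted p under 0.05, and their smallest adjusted p was 0.61. Directions near 0 did not hold. Quantile normalization turned Myh1 to -0.061, Myh2 to -0.058, Myh4 to -0.027 and Tnni2 to -0.014, and left 1 of 9 above 0 where the main setting had 5. Median centring, which moved the median of all genes by -0.102, turned Myh1 to -0.018 and Myh2 to -0.014 and left 3 of 9 above 0. Relative to all genes the members' median was 0.030 in the main setting and under centring, and -0.085 under quantile normalization. The mean of all probe sets of a gene gave -0.063 for Myh1 and -0.57 for Tnni2, whose dimmer probe sets read lower. With 1 array left out, changes ran from -0.13 to 0.29 (Myh1), -0.19 to 0.37 (Myh2), -0.075 to 0.30 (Myh4), -0.24 to 0.23 (Mylpf), -0.53 to 0.52 (Myl1), -0.48 to 0.067 (Tnnt3), -0.25 to 0.12 (Actn3) and -0.76 to 0.033 (Myh11). The members' median then ran from -0.19 to 0.20, as low without MCK-PPARa replicate 1 (-0.187) and NTG replicate 2 (-0.169) and as high without NTG replicate 1 (0.202) and MCK-PPARa replicate 2 (0.195). Within-array shifts ran from -0.17 to 0.18 (Myh2 minus Myh1), -0.18 to 0.13 (Myh2 minus Myh4) and -0.051 to -0.0016 (Myh1 minus Myh4).

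Over all genes the count of 5 became 2 under quantile normalization, 1 under median centring, 3 without a variance trend, 16 with the mean of probe sets, and 72 to 150 with 1 array left out. Over all probe sets the count of 7 became 3 with the 50% offset, 2 under quantile normalization, 1 under centring, 0 without a trend (limma, 1227 at an unadjusted p under 0.05), and 0 to 108 with 1 array left out. The cause was not tested. The lone array of a group is assumed to vary like the others.

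The groups share replicate numbers 1 and 2, and no label says what a number marks. Same-numbered arrays deviated together (r = 0.47 across genes, which are not independent). Blocking on the replicate number (a replicate block), 211 genes and 255 probe sets passed in limma, none of them a fast gene's brightest probe set, and 4 slow genes fell (Myh7, Tnni1, Tnnt1 and Tnnc1), as did Actc1 (adjusted p = 0.0028), while Ppara (0.00085) and 3 adipocyte markers (Scd1, Fabp4 and Adipoq) rose. The pairing leaves the within-array shifts unchanged by construction, since each group has 1 array under each number.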
